A study of Rattus norvegicus with 40 samples.

Results

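The cytochrome P450 genes of families 1 to 4 were followed in rat liver across all 12 groups of the study. They were chosen by name: every row of the deposited table that carries exactly 1 platform gene symbol beginning with Cyp, a family number of 1 to 4 and a subfamily letter. The rule found 50 genes among the 14497 genes with such a row. Each of the 50 had 1 row on the Rat Gene 1.0 ST array, and all 50 symbols matched RefSeq. Among them, Cyp2s1-ps1 is a transcribed pseudogene in RefSeq and is counted here as a gene. Family 1 held 3 genes, family 2 held 30, family 3 held 5 and family 4 held 12. Of the 50, 40 passed the filter on dim rows and were tested, namely 2, 24, 4 and 10 genes of families 1, 2, 3 and 4.

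The study measured total RNA and RNA from polysomes, the fraction of mRNA loaded with ribosomes that a sucrose gradient separates, in 20 livers of Sprague Dawley rats. Fetuses were injected on gestation day 19 with 50 µg of rapamycin each or with the vehicle DMSO, and their livers were taken 24 h later on day 20 (4 livers per treatment). Adults of 125 to 150 g were injected into the peritoneum with rapamycin (250 µg for each 100 g that the animal weighed) or with DMSO 1 h before partial hepatectomy, an operation that removes part of the liver so that the remnant regrows, and their livers were taken 24 h after it (3 per treatment). Other adults of the same weight were fasted for 48 h, injected in the same way and 1 h later refed for 3 h (3 per treatment). No genotype was altered in any group, the sex of the animals is not given in the labels, and the polysome preparations are described as pooled without saying what was pooled. The refed adults stand for the adult liver throughout and were themselves fasted and refed, and no untreated adult liver was analysed here. Rapamycin inhibits mTOR complex 1, a kinase that promotes translation.

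Cytochromes P450 are haem enzymes that insert an oxygen atom into their substrates, taking electrons from the reductase encoded by Por. Families 1 to 3 hold most of the enzymes that oxidise drugs, toxins and steroids in the liver, and family 4 holds mostly hydroxylases of fatty acids and of eicosanoids such as leukotriene B4. Many of these genes are known to be switched on around or after birth, several in rat liver differ between adult males and females through the pattern of growth hormone, and others are induced through the receptors AhR, CAR, PXR and PPAR alpha. Close copies within the 2b, 2c, 2d, 3a and 4a subfamilies are similar in sequence, so a row of one copy may hold signal of another, and the values of single members of these subfamilies are uncertain to that extent.

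RefSeq promoters (build GRCr8, from 250 bases before to 50 bases after the annotated start of transcription) were found for 43 of the 50 genes. Those of 6 genes are given here in 5′ to 3′ direction, as pairs of related genes described below: a 2c pair that was far lower in fetal livers, a 3a pair that varied between fetal livers, and a 2b pair of which only Cyp2b1 was called after hepatectomy. In the 2c pair, capitals mark the TATA box letters TATAAA on either strand. In the 3a pair, capitals mark CAAAGTCCA, a motif of the type bound by the liver regulator HNF4 alpha, on either strand. In the 2b pair, which encodes the phenobarbital-inducible enzymes, capitals mark the bases at which the promoters differ.
Cyp2c11, chr1:246174966-246175265, plus strand: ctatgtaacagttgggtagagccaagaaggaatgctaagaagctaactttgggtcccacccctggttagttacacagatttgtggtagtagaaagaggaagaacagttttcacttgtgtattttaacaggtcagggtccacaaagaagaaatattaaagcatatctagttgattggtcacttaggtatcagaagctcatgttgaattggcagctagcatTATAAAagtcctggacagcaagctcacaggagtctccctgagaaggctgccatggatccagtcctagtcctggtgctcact
Cyp2c13, chr1:248787139-248787438, minus strand: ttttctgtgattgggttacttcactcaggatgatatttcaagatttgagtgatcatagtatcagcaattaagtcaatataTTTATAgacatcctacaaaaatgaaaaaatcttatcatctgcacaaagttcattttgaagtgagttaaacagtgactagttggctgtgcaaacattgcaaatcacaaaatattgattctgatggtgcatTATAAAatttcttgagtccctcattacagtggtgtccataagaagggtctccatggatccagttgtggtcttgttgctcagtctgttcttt
Cyp3a2, chr12:14343808-14344107, minus strand: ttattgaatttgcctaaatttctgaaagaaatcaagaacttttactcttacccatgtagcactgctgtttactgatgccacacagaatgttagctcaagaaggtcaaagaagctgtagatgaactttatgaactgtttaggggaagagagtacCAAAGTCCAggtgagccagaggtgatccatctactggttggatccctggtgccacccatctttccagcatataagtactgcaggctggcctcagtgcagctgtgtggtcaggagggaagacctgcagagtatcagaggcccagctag
Cyp3a23-3a1, chr12:14398754-14399053, minus strand: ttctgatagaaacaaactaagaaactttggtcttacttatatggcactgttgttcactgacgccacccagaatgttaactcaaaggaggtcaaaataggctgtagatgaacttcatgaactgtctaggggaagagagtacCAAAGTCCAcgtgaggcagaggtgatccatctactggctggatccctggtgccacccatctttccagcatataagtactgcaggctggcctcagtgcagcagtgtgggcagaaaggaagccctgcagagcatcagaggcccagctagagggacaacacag
Cyp2b1, chr1:90645869-90646168, plus strand: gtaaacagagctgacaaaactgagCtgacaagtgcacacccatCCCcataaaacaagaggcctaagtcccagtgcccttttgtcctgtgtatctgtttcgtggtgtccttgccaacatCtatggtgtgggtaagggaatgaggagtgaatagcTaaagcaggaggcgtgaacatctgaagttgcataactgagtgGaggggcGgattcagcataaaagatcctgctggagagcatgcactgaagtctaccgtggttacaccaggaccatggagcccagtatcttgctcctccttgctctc
Cyp2b2, chr1:90722031-90722330, plus strand: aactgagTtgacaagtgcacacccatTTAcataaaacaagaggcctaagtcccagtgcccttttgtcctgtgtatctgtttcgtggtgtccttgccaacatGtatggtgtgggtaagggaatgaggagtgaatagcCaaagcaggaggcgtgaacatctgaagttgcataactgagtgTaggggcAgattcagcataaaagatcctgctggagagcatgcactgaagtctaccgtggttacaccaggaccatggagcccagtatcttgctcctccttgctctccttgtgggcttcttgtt
The Cyp2b1 and Cyp2b2 promoters differed at 8 of 283 aligned bases, an identity of 97.2%. The Cyp3a2 and Cyp3a23-3a1 promoters shared 209 of 287 aligned bases, or 72.8%. The Cyp2c11 and Cyp2c13 promoters shared 98 of 290 bases, or 33.8%. Printed promoters of different subfamilies shared 29.4% to 33.4%, so the 2c value is about that of such pairs. All identities are at the best ungapped offset within 20 bases. An inserted or missing base shifts the letters after it, so a low identity does not show that 2 promoters are unrelated. TATAAA occurred in 13 of the 43 members' promoters (30.233%) and in 14.262% of 27457 promoters of 1 per gene. CAAAGTCCA occurred in the 2 printed 3a promoters among the members and in 0.375% of all promoters. These matches describe letters in the window and were not tested for binding.

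All values are log2 of the deposited normalized intensities. Medians of the 40 arrays lay between 7.09 and 7.40, and no arrays were duplicates (smallest root mean square difference between any pair 0.233). The deposited table gives no detection call per row, so levels near the dim end of the scale may lie at the array's background, and a fold change towards such a level may be understated. The livers carried their defining markers: the summed intensity of 10 hepatocyte genes was 153082 to 160738 in the fetal, 154598 to 155713 in the hepatectomy and 152787 to 163232 in the refed DMSO total RNA. Fetal livers, a site of blood formation, also held erythroid RNA, with summed intensities of 39240 to 62723 in fetal, 1833 to 2559 in hepatectomy and 1416 to 2087 in refed DMSO total RNA. All 10 erythroid and all 6 granulocyte markers tested were higher in fetal than in refed livers. In bulk RNA, fewer cells of a type and less RNA per cell cannot be told apart, and the part of these blood cells in the results below was not tested. A total of 3 hepatectomy polysome arrays treated with DMSO carry a refeeding time point in 1 label field. They were grouped by their titles.

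Fetal livers held less mRNA of most P450 genes of families 1, 2 and 3 than refed adult livers, while family 4 was mixed. Over all 50 genes, with no filter on dim rows, 33 were lower and 4 higher in fetal than in refed DMSO total RNA (limma, adjusted p under 0.05), against 35% of 15515 rows called, 20.8% higher and 14.2% lower. The median log2 difference of the 50 genes was -1.13. The genes lower were 2 of 3 in family 1, 21 of 30 in family 2, 5 of 5 in family 3 and 5 of 12 in family 4. Among the 40 genes that passed the filter, 30 were lower and 3 were higher, against 47.1% of all 10860 tested rows called in either direction, 28.1% higher and 19% lower. Their median was -1.82, and that of all tested rows 0.04. The filter is a mean over all arrays, so a gene can pass it through the adult groups alone and then has to differ, and the filtered counts and medians give no support for a direction. Of the 30 genes, 7 had a fetal mean under the filter value of 6.70 (Cyp1a1, Cyp2a2, Cyp2c11, Cyp2c13, Cyp2c6v1, Cyp2j10 and Cyp3a62), and 23 did not. For these 7 genes the fetal p-values and gaps between groups given below are no support for a direction either. They describe the size of the difference. The limit on filtered counts and medians also holds for the fetal counts below. Age and the fasting and refeeding of the adults cannot be told apart in these differences.

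**Figure D1:**
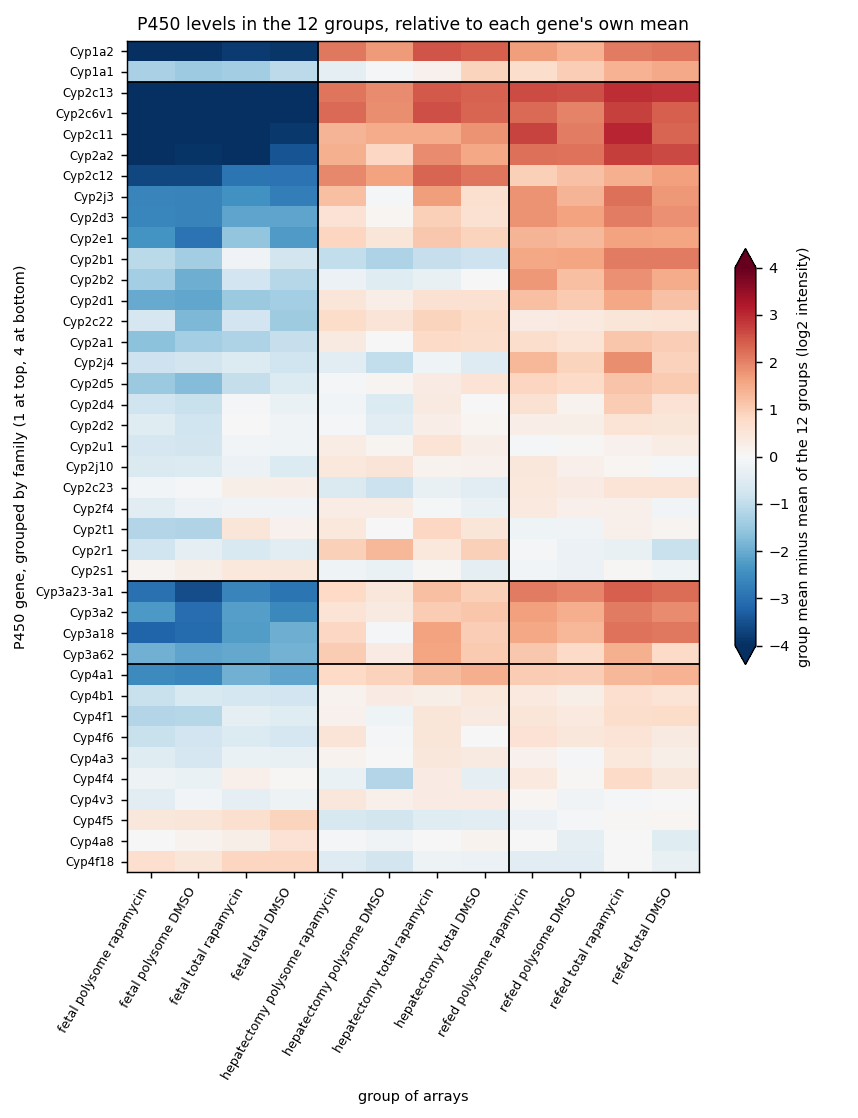
Group mean minus the mean of the 12 groups (log2 intensity, colour scale from -4 to 4) for the 40 tested P450 genes (rows, by family) in each group (columns, fetal left of hepatectomy and refed). The 4 fetal columns are blue for most genes of families 1 to 3, while Cyp2c23 is near 0 there and Cyp4f18 and Cyp4f5 are red.

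The 2c subfamily held the widest gaps. Cyp2c13, a male-biased enzyme of adult rat liver, measured 5.74, 5.34, 6.79 and 6.70 in fetal livers, against 13.83, 13.94 and 13.58 in refed livers (means 6.14 ± 0.72 and 13.79 ± 0.19, SD, n = 4 and 3). The groups did not overlap, and the difference of -7.64 ± 0.276 (SE) was a 200-fold lower intensity (limma adjusted p = 3.6e-21). Cyp2c11, the main testosterone hydroxylase of adult male rat liver, measured 4.88, 5.02, 5.09 and 5.07 in fetal livers and 10.95, 11.10 and 11.60 in refed livers, a difference of -6.20 ± 0.347 (adjusted p = 4.82e-16). Its fetal values were all in the dimmest part of the scale, below the filter value of 6.70. Cyp2c6v1, a constitutive 2c enzyme, differed by -6.81 ± 0.397. The fetal means of Cyp2c13, Cyp2c11 and Cyp2c6v1 all lay under the filter value, so their p-values and gaps give no support for a direction. Cyp2c12, a steroid sulphate hydroxylase biased to adult females, was 4.58 log2 units lower (-4.58 ± 0.655). Cyp2c22, a retinoic acid hydroxylase, was less far apart at -1.96 ± 0.364. Cyp2c23, an arachidonic acid epoxygenase, stood outside this pattern: fetal livers measured 13.33, 13.39, 13.72 and 13.73 and refed livers 13.93, 13.79 and 13.76, and the difference was not called.

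The tested genes of family 1 and of the 2a subfamily were lower in fetal livers. Cyp1a2, an AhR target that oxidises caffeine and aromatic amines, measured 6.66, 6.64, 7.32 and 7.27 in fetal livers, against 13.16, 12.95 and 12.97 in refed livers. That is a 66.4-fold lower intensity (-6.05 ± 0.209, adjusted p = 9.31e-22), with no overlap between the groups. Cyp1a1, the aromatic hydrocarbon hydroxylase, was lower by a smaller step (-2.56 ± 0.349) and its fetal values of 5.62 to 6.52 lay under the filter value. Cyp2a2, a male-biased testosterone hydroxylase, differed by -6.09 ± 0.376, and Cyp2a1, the testosterone 7 alpha-hydroxylase, by -1.91 ± 0.325. The fetal mean of Cyp2a2 also lay under the filter value.

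The inducible and ethanol-metabolising enzymes of family 2 were also lower in fetal livers. Cyp2e1, which oxidises ethanol and paracetamol, measured 10.08, 8.90, 10.60 and 10.48 in fetal livers and 13.90, 13.92 and 13.82 in refed livers (-3.86 ± 0.408, adjusted p = 1.67e-09). Cyp2j3, an epoxygenase of arachidonic acid, was lower by 4.52 log2 units (-4.52 ± 0.346), and Cyp2j4 differed by -1.73 ± 0.415. Cyp2b1 differed by -2.81 ± 0.609 (adjusted p = 0.000278). Cyp2b2 differed by -2.63 ± 0.832 (adjusted p = 0.00977), a call that ended without fetal liver 2 (adjusted p = 0.0667). Fetal levels of Cyp2b2 spread from 7.17 to 11.21, against 11.98 to 12.42 in refed livers. The 2d subfamily was lower throughout, with Cyp2d1, the debrisoquine hydroxylase, at -2.5 ± 0.345 and Cyp2d2 at -0.64 ± 0.198.

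Family 3 and family 4 divided. Cyp3a23-3a1, a steroid hydroxylase induced through PXR, measured 5.52, 5.30, 9.92 and 9.88 in fetal livers, against 12.81, 13.22 and 12.34 in refed livers (-5.13 ± 1.10, adjusted p = 0.000252). Cyp3a2, a male-biased 3a enzyme in adult rats, differed by -4.46 ± 1.17 (adjusted p = 0.00207) and Cyp3a18 by -4.04 ± 0.649. Cyp4a1, the PPAR alpha target that hydroxylates the end of fatty acids, differed by -3.51 ± 0.82, and Cyp4a3, a close relative, by -0.55 ± 0.224 (adjusted p = 0.0444). Cyp4f18, which in mouse inactivates leukotriene B4 in neutrophils, was higher in the fetus: 8.09, 8.16, 8.36 and 8.47, against 7.28, 7.12 and 6.92 in refed livers (1.16 ± 0.141, adjusted p = 2.8e-08). The 6 granulocyte markers summed to 16859 to 19100 in these fetal livers and to 423 to 592 in the refed livers. The other genes called higher were Cyp4f5 (0.81 ± 0.268, adjusted p = 0.013) and Cyp2s1 (0.61 ± 0.185, adjusted p = 0.00723), a P450 known mainly from epithelia outside the liver. Cyp2s1 measured 7.44, 7.36, 7.26 and 7.23 in fetal and 6.73, 6.80 and 6.63 in refed livers, without overlap. Not called were Cyp2c23, Cyp2f4, Cyp2r1, Cyp2t1, Cyp4a8, Cyp4f4 and Cyp4v3. Apart from Cyp2b2, calls that ended when a single array was left out were those of Cyp2j10 (fetal liver 1 or 2, refed liver 2 or 3), Cyp2u1 and Cyp4a3 (fetal liver 1 or 2, refed liver 1 or 2) and Cyp4f5 (fetal liver 4 or refed liver 3), with 29 to 33 genes called.

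**Figure D2:**
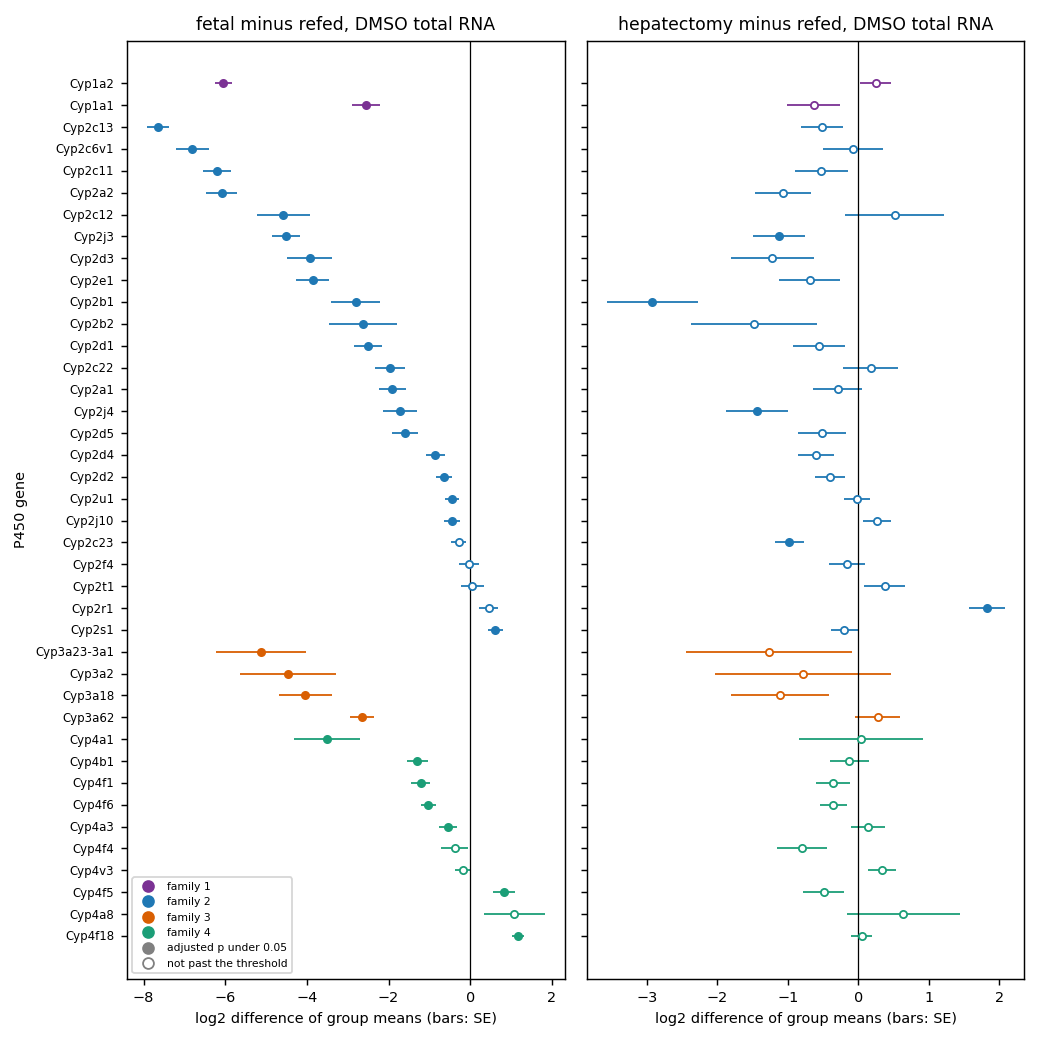
Log2 difference of group means with its SE (bars) for the 40 tested P450 genes, coloured by family, in DMSO total RNA: fetal minus refed livers on the left and hepatectomy minus refed livers on the right, on separate scales. Filled points passed the adjusted p threshold of 0.05. The fetal differences run from -7.64 to 1.16, and those after hepatectomy from -2.92 to 1.82.

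Fetal livers also held less mRNA of most of these genes than the adult livers after hepatectomy, by smaller steps at the median. Over all 50 genes with no filter, 30 were lower and 5 higher in fetal DMSO total RNA, beside 26.8% of all rows called, 15.2% higher and 11.6% lower (median of the 50 genes -0.70, and -1.13 against refed livers). After the filter, 27 of the 40 genes were lower and 4 higher in fetal than in hepatectomy livers, beside 36.9% of all tested rows called, 19.9% higher and 17% lower (median -1.16 over these P450 genes, and -1.82 against refed livers). Cyp2c13 differed by -7.13 ± 0.276, Cyp1a2 by -6.30 ± 0.209 and Cyp2c11 by -5.68 ± 0.347. Cyp4f5, Cyp4f18, Cyp2s1 and Cyp2c23 were higher in the fetus, by 1.30 ± 0.268, 1.11 ± 0.141, 0.80 ± 0.185 and 0.69 ± 0.19. The comparisons with refed and with hepatectomy livers share the same fetal arrays. Leaving out 1 array at a time gave 27 to 31 calls here, and the Cyp3a2 call (adjusted p = 0.013 with all arrays) ended without fetal liver 1 or 2 (adjusted p up to 0.0695). Calls of Cyp2d5, Cyp2u1, Cyp4a3 and Cyp4v3 also ended without a single array.

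Polysome RNA gave similar counts. Fetal polysomes were lower than refed polysomes for 31 genes and higher for 2, beside 50.6% of all rows called (23.6% higher and 27% lower), and lower than hepatectomy polysomes for 27 genes and higher for 5, beside 50.2% (23.5% higher and 26.7% lower). Cyp2c13 measured 5.90, 6.59, 6.78 and 5.40 on fetal polysomes, against 13.65, 13.46 and 13.29 on refed polysomes. The calls of 2 genes differed between the fractions. Cyp2t1, a P450 of little known function, measured 8.88, 9.31, 9.93 and 9.62 on fetal polysomes and 10.63, 10.57 and 10.33 on refed polysomes, while its total RNA measured 10.44, 10.20, 11.18 and 11.48 in fetal and 10.95, 10.94 and 10.44 in refed livers. Only its polysome groups were apart, yet the difference between fractions itself was -1.12 ± 0.39 and was not called (adjusted p = 0.0595). With each liver as a block it was called (adjusted p = 0.000831). Cyp4f5 was called in total RNA alone, and its difference between fractions was -0.27 (adjusted p = 0.728).

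P450 levels varied among the fetal livers of 1 treatment. Cyp3a2 in DMSO total RNA measured 6.11 and 6.21 in livers 1 and 2 and 11.41 and 11.43 in livers 3 and 4. With rapamycin the 4 livers measured 7.91, 7.59, 11.28 and 9.86. Livers 3 and 4 were the higher ones in both treatments. Cyp4a1 showed the same order with 7.92, 7.85, 11.46 and 11.43 in DMSO livers 1 to 4, as did Cyp3a23-3a1 (values above) and Cyp2c12 with 7.06, 6.49, 10.46 and 9.09. Cyp2c11 was at the dim end of the scale in all 4 livers, at 4.88 to 5.09, where an order between livers cannot be read. The mean log2 level over the 40 tested genes was 8.39, 8.30, 9.59 and 9.47 in total RNA of DMSO livers 1 to 4, and 8.71, 8.58, 9.51 and 9.05 in total RNA of rapamycin livers 1 to 4. In adult DMSO total RNA it was 11.10, 10.58 and 10.73 after hepatectomy and 11.28, 11.46 and 10.85 in refed livers. On polysomes the mean was 8.04, 8.07, 9.08 and 8.91 in DMSO livers and 8.18, 8.12, 9.18 and 8.86 in rapamycin livers. Liver 3 was the highest for 23 of the 40 genes in DMSO total RNA and for 23 to 29 genes in every fetal group. Over all rows this count was not made, so a shift of the whole array was not tested. The mean log2 level of the erythroid markers ran the other way, with 12.11, 12.06, 11.36 and 11.25 in total RNA of DMSO livers 1 to 4, and its part in these levels was not tested. The labels give no stage, litter or other difference between these livers.

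**Figure D3:**
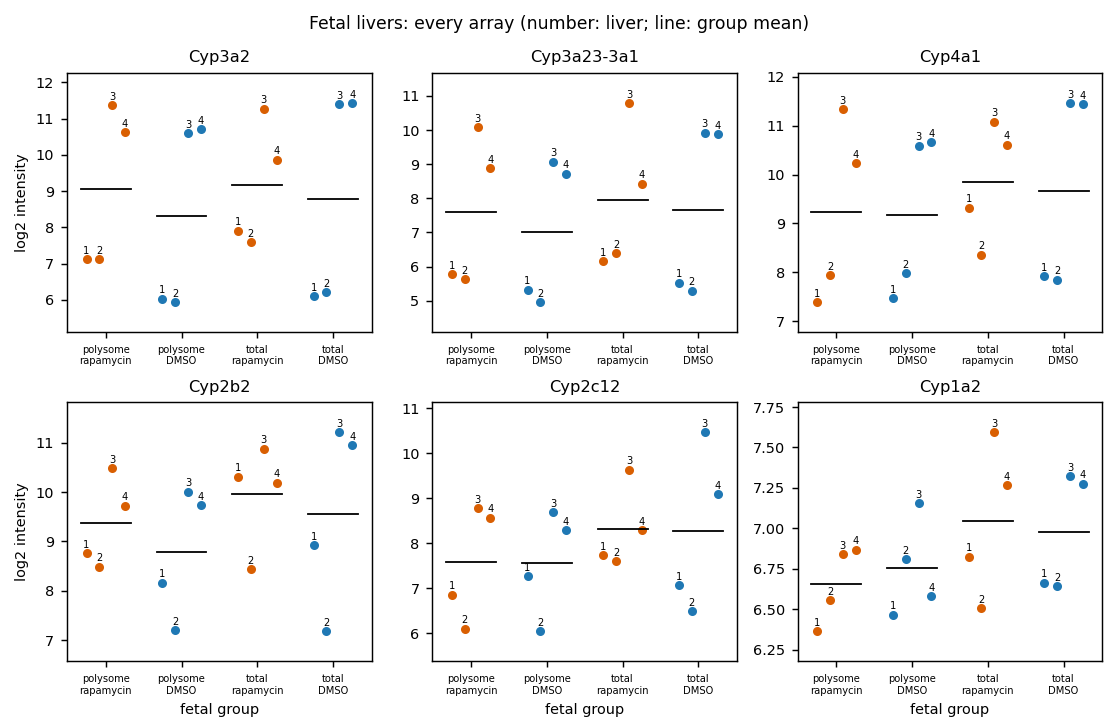
Log2 intensity of 6 P450 genes on every fetal array, by fraction and treatment, with the liver number above each point and the group mean as a line. Cyp3a2 in DMSO total RNA is at 6.11 and 6.21 in livers 1 and 2 and at 11.41 and 11.43 in livers 3 and 4.

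Other genes of the P450 system were read from lists of named genes, beside the 47.1% of all tested rows called in this comparison (28.1% higher and 19% lower). Of 6 electron transfer partners tested, 4 were lower in fetal than in refed total RNA and none was higher (median -0.42). Por, the P450 reductase, averaged 10.35 ± 0.59 in fetal and 11.53 ± 0.25 in refed livers (SD, n = 4 and 3), a difference of -1.18 ± 0.313 (adjusted p = 0.00228), and Pgrmc1 differed by -0.80. Of 18 regulators, 8 were lower and 1 higher, a share called near that of all rows. Hnf4a averaged 12.06 ± 0.22 in fetal and 12.98 ± 0.07 in refed livers (-0.92, adjusted p = 1.6e-06), and Nr1i3, which encodes CAR, differed by -1.54. Ppara was the regulator that was higher in the fetus (1.31), although the refed livers spread from 9.27 to 11.96. Of 10 genes of haem synthesis and breakdown, 6 were higher and none lower, led by Uros (3.02), Urod (1.82) and Fech (1.81). These genes also serve haemoglobin synthesis, and the erythroid markers given above were higher in the same livers. Of 21 other drug enzymes, 15 were lower and 2 higher, with the sulphotransferases Sult1c3 and Sult2a1 at -4.59 and -4.58 and the epoxide hydrolase Ephx2 at 2.54.

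At 24 h after partial hepatectomy, 5 of the 40 P450 genes differed from refed livers and 35 did not pass the test. This test pools the spread of all 12 groups, so a gene that varied among fetal livers passes less easily. In DMSO total RNA, 4 of the 40 genes were lower and 1 was higher than in refed livers, all of them in family 2, beside 17.5% of all tested rows called, 12.4% higher and 5.03% lower. The median was -0.38 over the P450 genes and 0.02 over all rows. By count the P450 genes lay near this background. The operation and the fasting and refeeding of the other adults cannot be told apart here. The 7 mitosis markers were all higher in the same comparison, with summed intensities of 9765 to 14663 after hepatectomy and 499 to 557 in refed livers.

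Cyp2r1, a vitamin D 25-hydroxylase, was the gene called higher after hepatectomy than in refed livers. It measured 9.60, 9.54 and 9.43 after hepatectomy, against 7.79, 8.30 and 6.99 in refed livers. Every hepatectomy liver was above every refed liver, and the difference of 1.82 ± 0.25 was a 3.54-fold higher intensity (adjusted p = 1.57e-06). On polysomes it measured 9.95, 9.89 and 9.84 after hepatectomy and 8.51, 8.70 and 7.84 in refed livers (1.55 ± 0.25, adjusted p = 2.76e-05). The call held without any single array.

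Cyp2b1 was lower, with 9.71, 6.99 and 7.13 after hepatectomy, against 11.08, 11.70 and 9.81 in refed livers (-2.92 ± 0.651, adjusted p = 0.00162). Liver 1 after hepatectomy was just below the lowest refed liver, and the other hepatectomy livers were far below it. Cyp2b2, whose promoter differs from that of Cyp2b1 at the bases shown above, measured 12.64, 9.42 and 10.08 after hepatectomy and 11.98, 12.42 and 12.17 in refed livers, so that hepatectomy liver 1 exceeded every refed liver, and it was not called. Cyp2c23 measured 12.88, 12.93 and 12.74 after hepatectomy, against 13.93, 13.79 and 13.76 in refed livers (-0.97 ± 0.203, adjusted p = 0.000786). Its groups were tight and apart, and it is the 2c gene that was not called between fetal and refed livers. The arachidonic acid epoxygenases Cyp2j4 (-1.43 ± 0.444, adjusted p = 0.0228) and Cyp2j3 (-1.12 ± 0.37, adjusted p = 0.0333) were also lower, but both calls ended without refed liver 2, hepatectomy liver 2 or hepatectomy liver 3, and that of Cyp2j3 also without refed liver 1 (adjusted p up to 0.152 and 0.30). The count of calls ran from 3 without refed liver 2, hepatectomy liver 2 or hepatectomy liver 3 to 10 without refed liver 3.

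On polysomes, 7 genes were lower and 1 higher after hepatectomy than in refed livers, beside 12.7% of all rows called, 7.86% higher and 4.83% lower. Cyp2b1 differed by -2.83 ± 0.651, Cyp2j4 by -1.89 ± 0.444, Cyp2j3 by -1.43 ± 0.37 and Cyp2c23 by -1.21 ± 0.203. Cyp2a2, Cyp2d2 and Cyp4f4 were called on polysomes alone. Cyp2a2 measured 11.29, 10.33 and 11.07 on hepatectomy polysomes and 12.37, 12.39 and 11.99 on refed polysomes (-1.35 ± 0.402, adjusted p = 0.0216), and in total RNA 11.75, 11.08 and 12.08 after hepatectomy and 13.06, 12.88 and 12.18 in refed livers. Cyp2d2 measured 13.26, 12.86 and 12.61 on hepatectomy polysomes, against 13.58, 13.56 and 13.56 on refed polysomes (-0.66 ± 0.212, adjusted p = 0.0364). Cyp4f4, an eicosanoid hydroxylase, measured 11.17, 9.67 and 9.64 on hepatectomy polysomes, against 11.78, 11.53 and 10.82 on refed polysomes (-1.22 ± 0.352, adjusted p = 0.0178). None of these 3 differed between the fractions in the test of that difference (adjusted p = 0.9998 for each). The calls of all 3 ended without refed liver 1, refed liver 2 or hepatectomy liver 2, that of Cyp4f4 also without hepatectomy liver 3, that of Cyp2d2 also without refed liver 3 or hepatectomy liver 3, and that of Cyp2j3 without hepatectomy liver 3. The count of calls ran from 5 to 10.

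**Figure D4:**
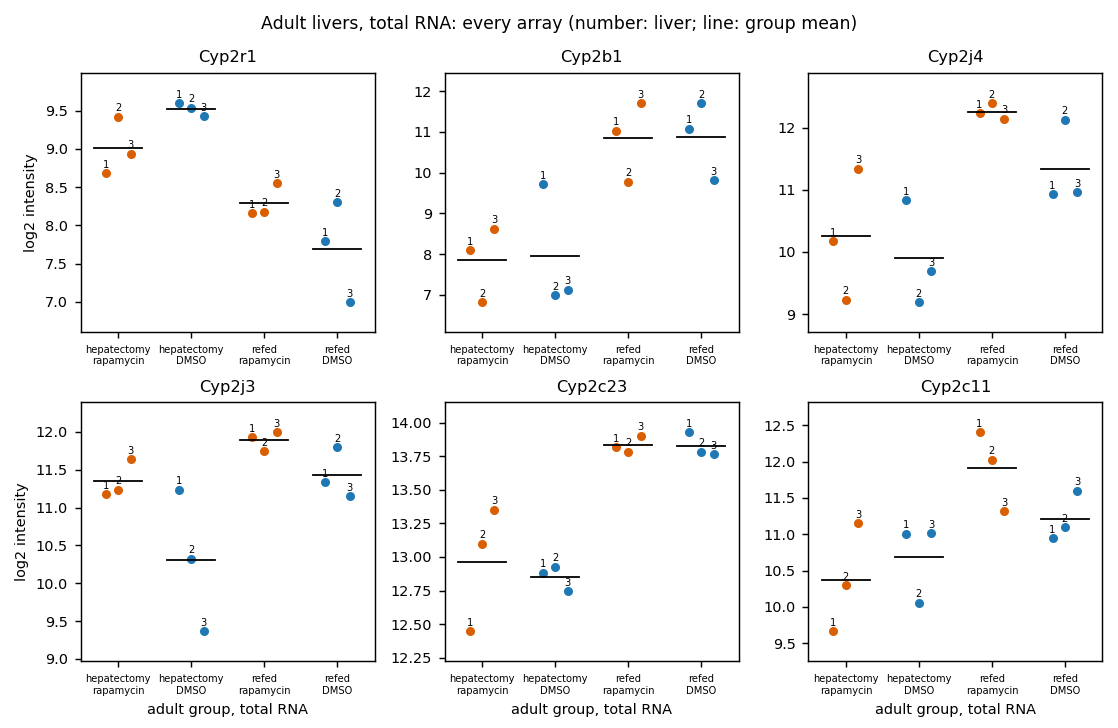
Log2 intensity of 6 P450 genes in the total RNA of every adult liver, hepatectomy left of refed and rapamycin left of DMSO, with the liver number above each point and the group mean as a line. Cyp2r1 is at 9.43 to 9.60 in DMSO livers after hepatectomy and at 6.99 to 8.30 in refed ones, and Cyp2b1 spreads from 6.99 to 9.71 after hepatectomy.

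In total RNA after hepatectomy, the genes of these lists other than the haem genes were called about as often as the 17.5% of all rows given above. Among 6 electron transfer partners, 1 was called higher (Pgrmc2, 0.59), and none of the 10 haem genes was called. Of 18 regulators, Ahr (1.26) and Ghr (0.55) were higher and Cebpa (-0.62) was lower. Of 21 other drug enzymes, 1 was higher (Gstt1, 0.65) and 4 were lower, led by Aox1 (-2.65), Ces1d (-1.83) and Fmo1 (-0.90).

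Few P450 genes were called for rapamycin in any model, which does not show that few changed. After hepatectomy, 1 gene was higher in total RNA, beside 5.01% of all rows called (1.47% higher and 3.54% lower), and 1 was higher on polysomes, beside 6.35% (2.26% higher and 4.1% lower). In refed and in fetal livers, limma called no row of any kind in either fraction (0% in all 4 comparisons), and at an unadjusted p under 0.05 the P450 genes numbered 6 in refed total RNA, 4 on refed polysomes, 0 in fetal total RNA and 2 on fetal polysomes. With the liver number as a block, which pairs the fetal livers, the fetal comparisons still called none. Refed livers of rapamycin and DMSO treatment thus did not differ detectably with 3 livers each, which does not show that they were equal: without DMSO liver 2, 5 genes were called in refed total RNA (Cyp2b2, Cyp2c6v1, Cyp2j3, Cyp2j4 and Cyp3a62). The 0% of all rows belongs to the fits with all arrays, so these 5 genes are not set apart from other rows.

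Cyp2s1 in total RNA measured 6.99, 6.89 and 6.94 after hepatectomy with rapamycin, against 6.59, 6.45 and 6.52 after hepatectomy with DMSO. The groups were apart by a small step of 0.42 ± 0.0837 (adjusted p = 0.0252), near the filter value of 6.70, and the call ended without DMSO liver 2 or 3 or rapamycin liver 1 or 3 (adjusted p up to 0.102). Cyp4f6, an eicosanoid hydroxylase, measured 10.65, 10.55 and 10.70 on hepatectomy polysomes with rapamycin, against 10.37, 9.95 and 9.76 with DMSO (0.60 ± 0.137, adjusted p = 0.0308). In total RNA Cyp4f6 differed by 0.48 ± 0.137 (adjusted p = 0.0638). Cyp2r1 was the gene called higher after hepatectomy than in refed livers. After hepatectomy it measured 8.68, 9.42 and 8.94 in total RNA with rapamycin and 9.60, 9.54 and 9.43 with DMSO. The difference was not called with all arrays, and it was called lower without rapamycin liver 2 (-0.71, adjusted p = 0.025). Its rapamycin effect after hepatectomy minus that in refed livers was -1.11 ± 0.354 (adjusted p = 0.118). No P450 gene was called for a difference of the rapamycin effect between hepatectomy and refed livers (0.516% of all rows in total RNA and 0.12% on polysomes), or between polysome and total RNA in any model (0% of all rows).

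The count on hepatectomy polysomes turned on single livers. Among the 40 genes, 14 had an unadjusted p under 0.05 on hepatectomy polysomes, and the median was 0.26. Without DMSO liver 1, 15 genes were called, all higher with rapamycin. The share of all rows given above belongs to the fit with all arrays. The 15 genes are therefore not set apart from other rows here. Without DMSO liver 2, DMSO liver 3, rapamycin liver 1 or rapamycin liver 3, none was called. DMSO liver 1 had the highest mean over the 40 genes, 10.81 on polysomes against 10.24 and 10.13 in DMSO livers 2 and 3. Cyp2j3 showed this order: 10.91, 10.67 and 11.06 with rapamycin, against 10.48, 9.84 and 8.49 with DMSO. In the same hepatectomy livers, 6 of 7 mitosis markers were lower with rapamycin in total RNA (summed intensity 2298 to 6331 with rapamycin and 9765 to 14663 with DMSO) and 3 of 7 endothelial markers were higher (10625 to 12089 with rapamycin and 8246 to 9995 with DMSO). Their part in the P450 values was not tested.

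P450 mRNAs were more often lower than higher on polysomes relative to total RNA of the same livers, with the deposited scaling. In refed DMSO livers 7 genes were lower and none higher, beside 24.7% of all rows called (19.5% higher and 5.14% lower). In hepatectomy DMSO livers 16 were lower and 1 higher, beside 43.8% (28.8% higher and 15% lower), and in fetal DMSO livers 4 were lower and none higher, beside 14.5% (8.1% higher and 6.38% lower). With the liver as a block, which pairs the fractions of each liver, the counts were 20 lower and 1 higher of 40 in refed livers, 32 lower and 3 higher in hepatectomy livers, and 15 lower and none higher in fetal livers. Over all rows this block called 10.8% lower and 31.7% higher in refed (42.5% in all), 22% lower and 39.1% higher in hepatectomy (61%) and 12.1% lower and 15.9% higher in fetal livers (28%). The median differences of the P450 genes were -0.28, -0.48 and -0.42 in refed, hepatectomy and fetal livers, against 0.10, 0.09 and 0.04 over all rows. The deposited normalization sets the arrays to a common scale, so these differences are relative to other mRNAs and say nothing of the amount on polysomes. Under another scaling (cyclic loess) 17 genes were called in refed livers, and no called gene changed sign.

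Single genes of adult livers showed small steps, mostly towards lower values on polysomes. Cyp1a2 measured 12.47, 12.22 and 12.14 on refed polysomes, against 13.16, 12.95 and 12.97 in refed total RNA (-0.75 ± 0.125, adjusted p = 0.00228), and after hepatectomy it differed by -0.71 ± 0.165. Each liver's polysome value was below its total RNA value. Cyp3a18 differed by -0.78 ± 0.157 and Cyp2e1 by -0.29 ± 0.0518 in refed livers. After hepatectomy Cyp3a18 differed by -1.07 ± 0.429, with -0.57, -1.07 and -1.57 in livers 1 to 3, and was called under the liver block (adjusted p = 5.02e-06) but not without it (adjusted p = 0.0606). Cyp2f4, known from the metabolism of naphthalene in lung, went the other way after hepatectomy, with 11.57, 11.39 and 11.49 on polysomes, against 10.89, 10.97 and 10.95 in total RNA (0.55 ± 0.0843, adjusted p = 0.00036). Cyp2r1 was higher on polysomes under the liver block, by 0.65 in refed livers (adjusted p = 0.0024) and by 0.37 after hepatectomy. In fetal livers Cyp2t1 measured 8.88, 9.31, 9.93 and 9.62 on polysomes, against 10.44, 10.20, 11.18 and 11.48 in total RNA (-1.39 ± 0.33, adjusted p = 0.0117). Cyp2d5 (-1.18 ± 0.368), Cyp2d4 (-0.63 ± 0.198) and Cyp2u1, a hydroxylase of long-chain fatty acids (-0.57 ± 0.123), were the other fetal calls.

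Liver by liver, the median polysome difference of the 40 genes was -0.26, -0.26, -0.37 and -0.54 in fetal, -0.34, -0.38 and -0.68 in hepatectomy and -0.28, -0.37 and -0.18 in refed DMSO livers. A value below 0 in every liver was found for 22 genes in fetal, 31 in hepatectomy and 29 in refed livers. The same count was not made over all rows, so it does not set the P450 genes apart. Whether the polysome difference itself differed between models was tested per gene, and none was called without a block (10.3% of all rows for fetal minus refed, 2.83% for fetal minus hepatectomy and 0% for hepatectomy minus refed). With the liver as a block, 5 genes were called for fetal minus refed (28.3% of all rows), 4 for fetal minus hepatectomy (15.6%) and none for hepatectomy minus refed (0.0737%).

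**Figure D5:**
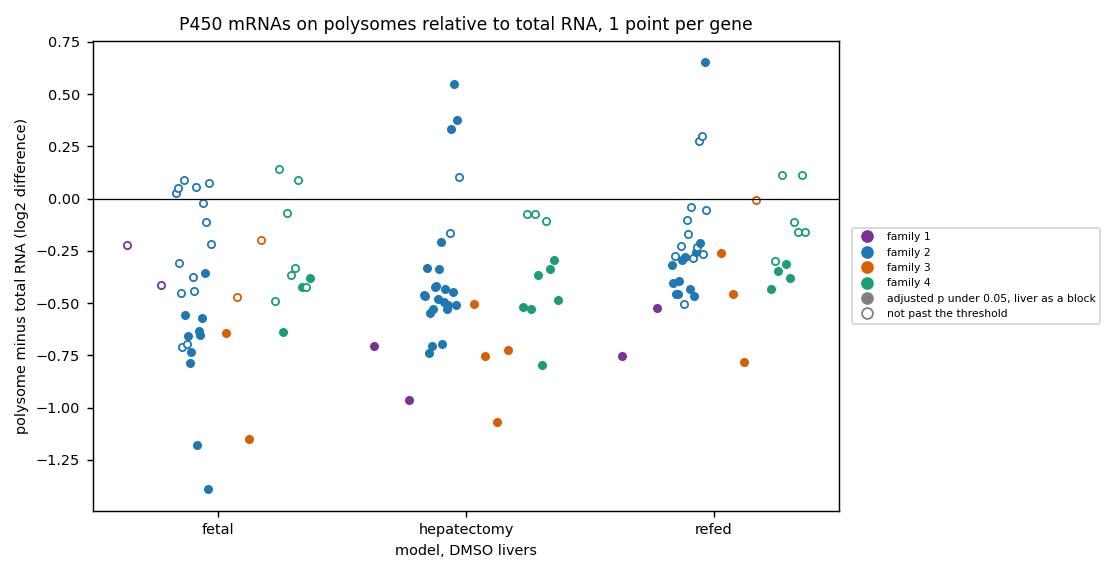
Polysome minus total RNA (log2 difference of DMSO group means) of each tested P450 gene in fetal, hepatectomy and refed livers, coloured by family. Filled points passed the adjusted p threshold of 0.05 with the liver as a block. Most points lie below 0, and Cyp2r1 in refed livers is the highest at 0.65.

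The 10 genes under the filter were Cyp1b1, Cyp2a3, Cyp2b12, Cyp2b15, Cyp2b21, Cyp2g1, Cyp2s1-ps1, Cyp3a9, Cyp4f40 and Cyp4x1, with means over the 40 arrays between 4.67 (Cyp2b12) and 6.59 (Cyp2b15). Cyp1a1 lay just inside at 6.77. The 10 genes under the filter entered the fetal counts and medians above that were made with no filter on dim rows. They entered no filtered comparison above.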

How the data were processed

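The data were 40 Rat Gene 1.0 ST arrays with 28826 rows, 15209 of them with 1 platform gene symbol, 306 with several and 13311 with none. The deposited values are linear intensities, which the submitters' processing notes describe as normalized with RMA, with version and settings not given in the sources used here. Log2 was taken of these deposited intensities, with no pseudocount and no further scaling. Rows with a symbol were tested where their mean log2 over all arrays reached the 30th percentile (6.70), which left 10860 rows. The number of arrays limits the precision.

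Group means were fitted with limma 3.58.1 in R 4.3.3 (lmFit, eBayes with a trend, two-sided), with Benjamini-Hochberg adjustment over all tested rows and a threshold of 0.05. Comparisons between models used all 40 arrays, and comparisons within a model used its own arrays. The fits were tested on simulated data. Per the labels the arrays of a group are biological replicates. The p-values measure the spread within groups, pooled over all groups in a fit. Tests of hepatectomy against refed livers therefore also carry the spread of the fetal arrays. Without a block, the polysome and total arrays of 1 liver were counted as separate. Arrays with the same liver number were correlated in their deviations from group means. Polysome with total RNA gave r = 0.328 to 0.818, and fetal rapamycin with fetal DMSO gave 0.425 to 0.751. These were treated as pairs in the block fits alone, and the fits without a block ignored the pairing. For fetal rapamycin livers 1 and 4 (r = 0.417 and 0.328), the polysome array matched another liver's total RNA better. Adult rapamycin with DMSO gave -0.619 to 0.392, and these were not taken as pairs.

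The genes and lists were chosen with earlier results of these data known. Named with values are, per comparison, the called genes with the largest changes (up to 10 each way), a list of well-known P450 genes, genes whose call differed between fractions, and up to 3 called genes each way of each other list. Liver-to-liver examples were chosen after their values were seen. Alternatives were other filters, scalings, array sets, a model without trend, the replicate block and leaving out each array.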

Additional observations from a re-analysis of the deposited data

Results flagged for a closer look

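In 200 combinations of a P450 gene and a fetal group of 4 livers, 4 had 1 liver far from the other 3 by Dixon's criterion, which chance meets in about 1 in 20. Cyp1a1 measured 6.52 in fetal total RNA of DMSO liver 3, against 5.62 to 5.66 in the others. Cyp4a3 measured 12.36 in fetal total RNA of rapamycin liver 2, against 13.01 to 13.07. Cyp4f6 measured 9.60 on fetal polysomes of DMSO liver 3, against 9.23 to 9.29. Cyp4v3 measured 9.56 on fetal polysomes of rapamycin liver 2, against 10.23 to 10.31.

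The polysome minus total RNA difference itself differed between models for some genes, with each liver as a block and not without it. In both comparisons below, the share of P450 genes called was smaller than the share of all rows called, given above. The calls therefore do not set the P450 genes apart from other rows. For fetal minus refed livers these were Cyp1a2 (0.53, limma adjusted p = 0.0445), Cyp2d1 (-0.63, adjusted p = 0.00705), Cyp2d5 (-0.90, adjusted p = 0.0255), Cyp2r1 (-0.58, adjusted p = 0.0185) and Cyp2t1 (-1.12, adjusted p = 0.000831). For fetal minus hepatectomy livers they were Cyp2f4 (-0.66, adjusted p = 0.0254), Cyp2j3 (0.79, adjusted p = 0.0188), Cyp2t1 (-0.88, adjusted p = 0.00641) and Cyp2u1 (-0.41, adjusted p = 0.0373). Cyp2t1 was the gene on both lists, and both comparisons share the fetal livers.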

How the results depend on the processing

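No called P450 gene changed sign under cyclic loess or median centring, and the counts of P450 genes called between models in DMSO livers stayed within 1.5 times under every other filter, scaling, array set and the replicate block. Leaving out 1 array gave 29 to 33 calls for fetal against refed and 27 to 31 for fetal against hepatectomy in total RNA, and 31 to 34 and 29 to 33 on polysomes. For hepatectomy against refed it gave 3 to 10 in total RNA and 5 to 10 on polysomes. For rapamycin after hepatectomy it gave 0 to 15 calls on polysomes and 0 to 2 in total RNA, for rapamycin in refed total RNA 0 to 5, and in the other rapamycin comparisons 0. For polysome against total RNA it gave 5 to 13 in refed, 10 to 23 in hepatectomy and 2 to 4 in fetal livers. For the differences between models it gave 0 to 1 (rapamycin effect, hepatectomy minus refed, total RNA), 0 to 2 (polysome difference, fetal minus refed) and 0 for the rest. These leave-one-out counts are given without the share of all rows called in each fit. Rapamycin on hepatectomy polysomes called 1 gene, 0 with all 40 arrays in the fit and 3 with the replicate block. In hepatectomy total RNA it called 1 gene, 0 with the filter at the 50th percentile or with all arrays, and 2 with the replicate block, a block that adult numbers do not support as pairs. Polysome against total RNA in refed livers called 7 genes, 17 under cyclic loess, 4 under median centring, 2 with all arrays in the fit and 21 with the replicate block. In hepatectomy livers 17 became 2 with all arrays and 35 with the block, and in fetal livers 4 became 2 with no filter, 7 with all arrays and 15 with the block. The polysome difference of fetal minus refed livers called 0 genes, 1 with the 50th percentile filter, 1 under median centring and 5 with the block, and that of fetal minus hepatectomy called 0 and, with the block, 4. The cause of these shifts was not tested. Cyclic loess also moved the share of higher calls among all rows in polysome against total RNA, to 61.1% from 79.2% in refed, 54.5% from 65.8% in hepatectomy and 45.5% from 55.9% in fetal livers, and for rapamycin in hepatectomy total RNA to 41.4% from 29.4%. For the polysome difference the share moved to 39.1% from 18.7% (fetal minus refed) and to 58.3% from 42% (fetal minus hepatectomy). The median polysome difference of all rows in refed livers was 0.103, 0.002 under cyclic loess and 0.219 under median centring. The fetal minus adult rapamycin effect, a test added after seeing the data, called 0 P450 genes in 4 comparisons (unadjusted p under 0.05 in 1, 1, 3 and 0 genes). Averaging a gene's rows was not run because every P450 gene had 1 row.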

Other observations

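Among the P450 genes under the filter on dim rows, a fit without that filter called 6 of 10 between fetal and refed total RNA, beside 35% of all rows called in that fit. Cyp2a3, known in rat from nose and lung, measured 6.97, 6.81, 9.0 and 8.70 in fetal livers, against 6.02, 6.38 and 5.92 in refed livers (1.77, limma adjusted p = 0.00114). Every fetal liver was above every refed liver. Cyp3a9 measured 4.47, 3.92, 4.85 and 5.44 in fetal livers, against 6.76, 8.30 and 6.65 in refed livers (-2.57, adjusted p = 9.7e-05). These rows lie at the dim end of the scale.

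P450 genes of other families, which make bile acids, cholesterol and steroids, were mixed. Of 10 tested, 2 were higher and 3 lower in fetal than in refed total RNA, a share near the 47.1% of all rows called. Cyp51, an enzyme of cholesterol synthesis, averaged 12.11 ± 0.26 in fetal and 10.64 ± 0.57 in refed livers (SD, n = 4 and 3), and 12.38 ± 0.27 after hepatectomy (n = 3), where it was also higher than in refed livers (1.73). Cyp39a1, an oxysterol hydroxylase, was lower in the fetus (-2.58). With rapamycin after hepatectomy, Cyp8b1, the sterol 12 alpha-hydroxylase of bile acid synthesis, was lower in total RNA (-1.62) and on polysomes (-1.38). In the same livers Nr0b2, a repressor known to act on bile acid synthesis genes, was higher in total RNA (1.38) and on polysomes (1.51), and Onecut1, a liver transcription factor, was higher by 0.84 in total RNA and 0.85 on polysomes. A link of either gene to the Cyp8b1 values was not tested.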
